A study of Mus musculus with 12 samples.

Results

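The potassium channel genes of the mouse striatum shortly before birth were examined as a family. They were taken as all measured protein-coding genes whose mouse symbol begins with Kcn, which gave 90 genes in 20 subfamilies, among 24674 probe sets with a symbol and 25428 in all. A further 754 probe sets carried no symbol here, so the 90 are the named members only. Expression was measured on 12 arrays of striatum from C57BL/6J background embryos at embryonic day 18.5. The 6 control samples were wild type (WT). The 6 others were labelled Nestin-Cre (Foxp1-/-) and are called cKO here: Cre recombinase is driven by Nestin, a gene of neural progenitors, and its target is Foxp1, which encodes a DNA-binding protein of the forkhead family made at high level by striatal neurons. Nestin-Cre acts in neurons and glia descended from these progenitors and not in 1 neuronal class, and the labels do not say which exons were deleted or whether WT embryos carried Cre or floxed alleles. The titles number the arrays as biological replicates, without saying whether a sample pools embryos, and striata of both hemispheres were taken.

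Potassium channels let potassium leave the cell, and so set the resting potential, end the action potential and space the spikes that follow it. Voltage-gated pores open on depolarization, inward rectifiers and tandem-pore channels hold the cell at rest, and another set opens when calcium or sodium enters. Accessory subunits change how fast a pore opens, inactivates or reaches the membrane. Striatal projection neurons are known in the adult for a very negative resting potential set by inward rectifiers, and for A-type currents, which inactivate quickly and delay the first spike.

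The deposited values were log2 expression from RMA, a method that subtracts background, equalises the arrays and combines the probes of each set. A change is the cKO mean less the WT mean on that log2 scale, with the standard error (SE) and 95% interval given by limma. P values were adjusted by the Benjamini-Hochberg method across the 25428 probe sets. Of the 90 genes 53 had a mean level at or above that of the median probe set (5.71) and 37 lay below it, where the floor of the array leaves little room for a fall to show. Foxp1 itself read 10.89 to 11.39 across WT arrays and 10.14 to 10.36 across cKO arrays, a change of -0.91 ± 0.073 (limma adjusted p = 0.000170) in the labelled direction. Fewer cells of a type and less RNA per cell cannot be told apart in tissue RNA.

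Of the 90 genes 3 passed an adjusted p of 0.05. The Shaker-type pore gene Kcna4 and the accessory gene Kcnab1 fell in the cKO striatum, and the ether-a-go-go gene Kcnh1 rose. Over all probe sets 0.728% passed, 0.299% as higher and 0.429% as lower in cKO. Among the 12714 probe sets at or above the median level, where all 3 of these genes lay, the share was 1.34%. Before adjustment, 19 of the 90 had a p under 0.05, or 21.1%, against 10.7% of all probe sets. Of these, 7 were higher and 12 lower in cKO, where 5.06% and 5.67% of all probe sets met the same rule. Among the brighter members it was 16 of 53, or 30.2%, against 15.7% of the 12714 probe sets. The groups were fully separate for 4 genes, Kcna4, Kcnab1, Kcnh1 and Kcns3, and for 1.38% of all probe sets. All 4 lay at or above the median level, where 286 of the 12714 probe sets were fully separate. The median change of the 90 genes was -0.0063, and that of all probe sets -0.00077.

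**Figure D1:**
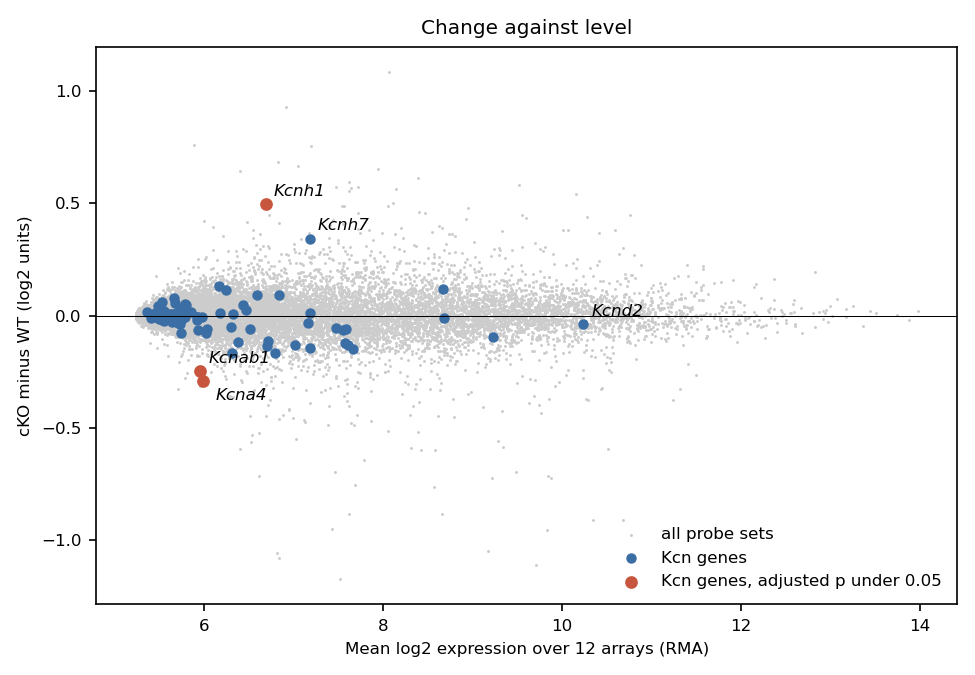
Each point is 1 probe set, with its mean log2 expression over the 12 arrays on the x axis and its change (log2, cKO less WT) on the y axis. All probe sets are grey, and Kcn genes are blue, or red where the adjusted p was under 0.05. The labelled genes include Kcna4 (-0.29) and Kcnab1 (-0.25), and Kcnh1 (0.50) has the largest change of the family.

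The bases before the starts of the 4 genes without overlap are shown because the targeted gene, Foxp1, encodes a DNA-binding protein. The sequences are the 250 bases upstream of annotated starts, from RefSeq on GRCm38.p6, written 5′ to 3′ along the gene's strand. Capitals mark matches on either strand to GGGCGG, the GC box, or to TGTTTNC, a loose form of the forkhead core. The positions are chr2:107290339-107290588 on the plus strand for Kcna4, chr3:64948962-64949211 on the plus strand for the first of 3 listed starts of Kcnab1, chr1:192190527-192190776 on the plus strand for Kcnh1 and chr12:11150843-11151092 on the minus strand for the more upstream of 2 listed starts of Kcns3.
Kcna4: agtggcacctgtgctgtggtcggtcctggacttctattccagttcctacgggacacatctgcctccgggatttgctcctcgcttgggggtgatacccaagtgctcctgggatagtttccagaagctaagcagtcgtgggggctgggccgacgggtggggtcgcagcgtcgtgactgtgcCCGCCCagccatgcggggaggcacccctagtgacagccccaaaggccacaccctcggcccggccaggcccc
Kcnab1: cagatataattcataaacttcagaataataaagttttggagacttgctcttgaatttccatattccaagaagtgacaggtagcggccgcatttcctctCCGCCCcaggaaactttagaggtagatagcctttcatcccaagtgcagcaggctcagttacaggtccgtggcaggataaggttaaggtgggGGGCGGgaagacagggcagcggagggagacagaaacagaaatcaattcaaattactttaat
Kcnh1: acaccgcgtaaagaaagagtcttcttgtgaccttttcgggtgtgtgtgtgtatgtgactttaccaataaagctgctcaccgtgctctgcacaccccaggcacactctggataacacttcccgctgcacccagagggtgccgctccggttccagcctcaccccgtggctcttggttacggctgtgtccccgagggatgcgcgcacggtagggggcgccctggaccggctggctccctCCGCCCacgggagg
Kcns3: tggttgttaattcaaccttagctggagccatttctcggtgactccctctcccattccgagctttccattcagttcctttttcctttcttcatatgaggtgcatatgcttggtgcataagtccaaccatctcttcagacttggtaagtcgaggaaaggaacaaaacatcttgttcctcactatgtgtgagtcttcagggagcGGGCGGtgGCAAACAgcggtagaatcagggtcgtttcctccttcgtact
A GC box stood before Kcna4, before Kcnh1, before 1 of the 3 starts of Kcnab1 and before both starts of Kcns3. The stricter forkhead core TGTTTAC was in none of these 7 windows, and TGTTTNC, which contains it, was in 1, the Kcns3 window shown, 34 bases before the start. Of the 90 genes of the family, 69 were matched with 94 such windows, and the rest, Kcnn2 and Kcng2 among them, were not read. TGTTTAC was in 0 of the 94, against 3.17% of 32851 windows from 27025 genes, and TGTTTNC in 12.8% against 17.8%. GC boxes were in 44.7% against 32.7%, and TATAAA in 3.19% against 12.4%, while the median GC content was 58.6% against 52.4%. The 32851 windows were not limited to protein-coding genes, as the 94 were, so the 2 sets differ in kind. Each listed start of a gene was counted as a window of its own. These are matches of letters in short windows and say nothing of binding.

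The Kcna genes encode the Shaker pores of axons and terminals, and Kcna4 is the member that inactivates quickly by itself and carries A-type current. Kcna4 read 6.04, 6.11 and 6.31 (lowest, median and highest of 6 arrays) in WT and 5.77, 5.84 and 5.90 in cKO. Every cKO array lay below every WT array, and the WT arrays were spread more widely. Kcna4 fell by 0.29 ± 0.045 (SE; 95% interval -0.39 to -0.19), or 1.22-fold, from 6.13 ± 0.11 (SD, n = 6) to 5.84 ± 0.049 (SD, n = 6), with a limma adjusted p of 0.0124. The call held without any single array. It was lost in 2 of 23 alternatives, 1 of them with the level of cortical neuron markers as a covariate, an alternative chosen after seeing the data (change -0.28, adjusted p = 0.0632).

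None of the other 7 Kcna genes passed. They had changes from -0.12 (Kcna6) to 0.0071 (Kcna7). Kcna3 read 8.55 to 8.81 across WT arrays and 8.58 to 8.71 across cKO arrays, with a change of -0.011 ± 0.042 (SE) and a 95% interval of -0.10 to 0.081. Kcna1 and Kcna2, the pores of myelinated axons in the adult, had values of -0.017 and -0.014 and lay near the median level. Several of these genes adjoin each other on the GRCm38.p6 assembly, with Kcna2 between Kcna3 and Kcna10 and Kcna1 between Kcna5 and Kcna6.

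Kcnab1 encodes a cytoplasmic beta subunit that docks on Shaker pores and adds fast inactivation. It read 5.96, 6.05 and 6.23 (lowest, median, highest) in WT and 5.77, 5.82 and 5.91 in cKO. The groups did not overlap, and WT replicates 4 and 6 were the highest. Kcnab1 fell by 0.25 ± 0.048 (SE; 95% interval -0.35 to -0.14), or 1.19-fold (limma adjusted p = 0.0435). The call was lost without WT replicate 3, 4 or 6 (adjusted p = 0.0815, 0.0866 and 0.0543) and without cKO replicate 1, 2, 3, 5 or 6 (adjusted p = 0.0977, 0.0799, 0.105, 0.113 and 0.0883). Its value was -0.20 without WT replicates 3 and 6. The related Kcnab2 had a change of 0.092 ± 0.067 (adjusted p = 0.678) and Kcnab3 one of 0.010 ± 0.023 (adjusted p = 0.916).

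**Figure D2:**
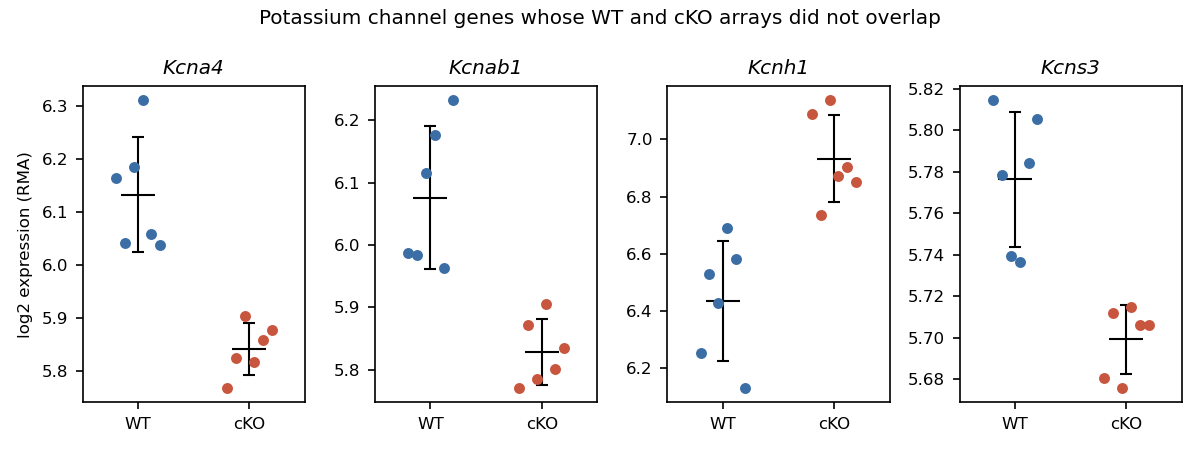
Log2 expression of the 4 Kcn genes whose groups did not overlap, with 1 point for each array, a bar at the group mean and whiskers of 1 SD (n = 6 in each group); the y axes differ between panels and do not start at 0. The cKO arrays lie below all WT arrays for Kcna4, Kcnab1 and Kcns3, and above them for Kcnh1.

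The 8 Kcnh genes encode the ether-a-go-go pores, which share a cytoplasmic domain related to cyclic nucleotide binding and open slowly. They fall into 3 branches, eag (Kcnh1 and Kcnh5), erg (Kcnh2, Kcnh6 and Kcnh7) and elk (Kcnh3, Kcnh4 and Kcnh8). Of the 8 genes 1 passed, as higher, and 4 (50%) had an unadjusted p under 0.05. That rule was met by 10.7% of all probe sets and 15.7% of those at or above the median level. Kcnh1, the eag gene best known from developing brain and from tumours, read 6.13, 6.48 and 6.69 in WT and 6.74, 6.89 and 7.14 in cKO (lowest, median, highest). All 6 cKO arrays lay above all WT arrays, by a gap between WT replicate 4 and cKO replicate 2 that was small beside the spread of either group. Kcnh1 rose by 0.50 ± 0.099 (SE; 95% interval 0.28 to 0.71), or 1.41-fold, from 6.44 ± 0.21 (SD, n = 6) to 6.93 ± 0.15 (SD, n = 6; limma adjusted p = 0.0469). The call was lost without any single array other than WT replicate 4, with an adjusted p from 0.0556 (without cKO replicate 2) to 0.111 (without cKO replicate 5), and its value ran from 0.44 to 0.54 over those fits. It was also lost with array weights (change 0.46, adjusted p = 0.0504).

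The second eag gene, Kcnh5, read 6.05 to 6.15 across WT arrays and 6.13 to 6.41 across cKO arrays, a change of 0.13 ± 0.045 (adjusted p = 0.283). The groups overlapped, and cKO replicates 2 and 5 were the highest. Kcnh7, an erg gene of the nervous system, had the second largest change of the family, 0.34 ± 0.098 (SE; 95% interval 0.13 to 0.56; adjusted p = 0.184). It read 6.66, 6.996 and 7.38 in WT and 7.15, 7.39 and 7.47 in cKO, and WT replicate 1 alone lay among the cKO arrays. Without that array its change was 0.42 and it passed (adjusted p = 0.0298). Kcnh4, an elk gene, had a change in the other direction, -0.14 ± 0.030 (adjusted p = 0.0686). Its values were 6.69 to 6.81 across WT arrays and 6.51 to 6.69 across cKO arrays, with the lowest WT array and the highest cKO array both at 6.69. It passed without WT replicate 5 (adjusted p = 0.0456). Values of the remaining Kcnh genes were -0.052 for Kcnh2, 0.031 for Kcnh3, 0.027 for Kcnh6 and -0.059 for Kcnh8. Whether the branches differ from each other was not tested.

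**Figure D3:**
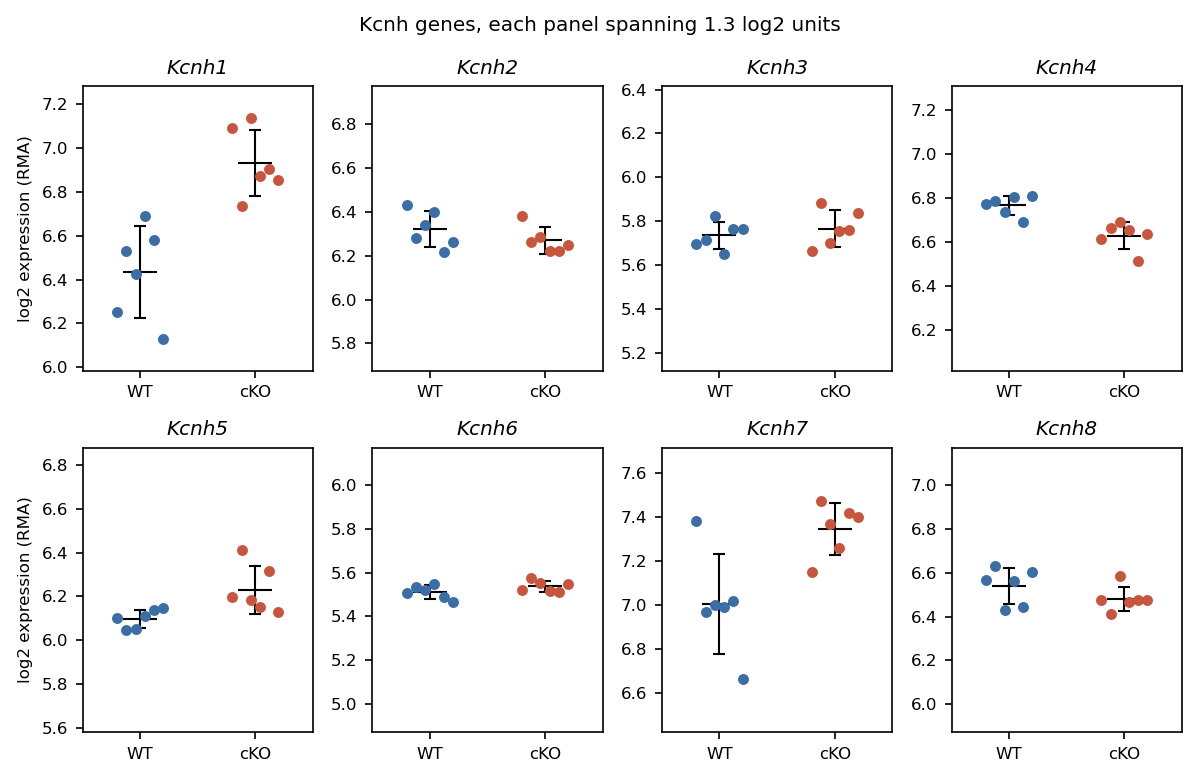
Log2 expression of the 8 Kcnh genes by group, with 1 point for each array, a bar at the mean and whiskers of 1 SD (n = 6 in each group); panels have the same height in log2 units, centred on the gene, and do not start at 0. Kcnh1 shows separate groups, Kcnh7 has 1 WT array at 7.38 among the cKO arrays, and Kcnh4 lies lower in cKO apart from arrays that meet at 6.69.

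The remaining voltage-gated pores had no gene past the threshold. The Kcnd genes form the A-type channels of cell bodies and dendrites. Kcnd2 read 10.12, 10.25 and 10.46 in WT and 10.001, 10.23 and 10.32 in cKO, with overlapping groups and a change of -0.039 ± 0.065 (SE; 95% interval -0.18 to 0.10). Kcnd3 had a value of 0.090 ± 0.059 and Kcnd1 one of -0.0067 ± 0.031. Of the Kcnq genes, whose channels carry the M-current that muscarinic receptors turn off, Kcnq3 read 7.63 to 7.93 across WT arrays and 7.43 to 7.80 across cKO arrays (change -0.15 ± 0.065, adjusted p = 0.428). Kcnq5 had a value of -0.066 ± 0.074, and Kcnq1, best known from heart and epithelia, one of -0.020. Of the Kcnc and Kcnb genes, Kcnc4 had a change of -0.17 ± 0.060 (adjusted p = 0.316) and Kcnb2 one of -0.11 ± 0.036 (adjusted p = 0.234). Kcnc4 read 6.69 to 7.04 across WT arrays and 6.56 to 6.81 across cKO arrays. WT replicate 4 was the only WT array inside the cKO range of Kcnc4. Kcnb2 read 6.66 to 6.86 across WT arrays and 6.58 to 6.73 across cKO arrays, with WT replicate 5 the lowest of its group. The Kcnc genes of fast-spiking neurons, Kcnc1 and Kcnc2, had values of -0.022 and 0.0013. Of the 26 voltage-gated pore genes, 18 had a negative change and 8 a positive change, with a median of -0.019. Of all 25428 probe sets 13027 had a negative change, and of the 12714 at or above the median level 6406 did.

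Electrically silent subunits form no channel by themselves and join Kcnb pores, changing their voltage range. Of these 10 genes 0 passed in limma. An unadjusted p under 0.05 was found for 4 (40%, against 10.7% of all probe sets), 3 lower and 1 higher. Kcns3 was just outside the threshold (adjusted p = 0.0508). It read 5.74, 5.78 and 5.81 in WT and 5.68, 5.71 and 5.71 in cKO, so the groups did not overlap, but the change was -0.077 ± 0.016 and the gene lay close to the median probe set. Kcns3 passed with array weights (adjusted p = 0.0403), with cyclic loess, and without WT replicate 3 or 4 (adjusted p = 0.0386 and 0.0373). Kcng1 read 6.30 to 6.502 across WT arrays and 6.17 to 6.34 across cKO arrays (change -0.17 ± 0.040, adjusted p = 0.0996). Only its cKO replicate 4, the highest of that group, lay above the lowest WT arrays. Kcns2 had a change of -0.078 ± 0.026 (adjusted p = 0.282), and Kcns1 one of 0.058 ± 0.021 (adjusted p = 0.302). Both had overlapping groups. The other 6 genes, Kcnf1, Kcng2, Kcng3, Kcng4, Kcnv1 and Kcnv2, lay between -0.034 and 0.0079.

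Inward rectifiers pass potassium more easily into the cell than out of it. Of the 15 Kcnj genes 0 passed in limma, and only 6 reached the median level. An unadjusted p under 0.05 was found for 2 (13.3%, against 10.7% of all probe sets). The adult projection neuron genes Kcnj2 and Kcnj4 were both near or below it, with values of 0.041 ± 0.015 (adjusted p = 0.344) and -0.028 ± 0.035 (adjusted p = 0.830). Pores opened by G proteins had values of 0.014 for Kcnj3, -0.012 for Kcnj5, 0.0070 for Kcnj6 and -0.018 for Kcnj9. Kcnj11, the pore of ATP-sensitive channels in neurons, had a value of 0.015. The kidney and epithelial genes Kcnj1 and Kcnj15, with Kcnj12 and Kcnj14, lay between -0.039 and 0.0055. All 15 had a 95% interval inside ±0.25, as did 23409 of the 25428 probe sets.

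Some Kcnj genes are better known from other cells. Kcnj8, which marks pericytes, had a change of -0.062 ± 0.027 (adjusted p = 0.436), while the 5 endothelial and pericyte markers had a median change of 0.087 and summed levels of 36.4 to 37.0 (WT) and 36.6 to 37.4 (cKO). Abcc9, the partner of Kcnj8, had a value of -0.095 ± 0.046. Kcnj10 and Kcnj16, which form the potassium buffering channels of astrocytes, had values of 0.047 ± 0.041 and -0.013 ± 0.018. Kcnj13, a choroid plexus gene, read 5.55 in cKO replicate 1 and at most 5.47 in every WT array. The same array had 9.96 for Ttr, the main choroid plexus transcript, where WT arrays read 5.39 to 5.57 and the other cKO arrays 5.50 to 5.54. The next highest cKO array read 5.46 for Kcnj13. Kcne2, another choroid plexus gene, had a change of 0.015 ± 0.013 and read 5.52 in cKO replicate 1, against at most 5.50 in WT. The dim choroid plexus markers Folr1, Clic6 and Otx2 read 5.70, 5.58 and 5.58 in that array. Their WT ranges were 5.70 to 5.76, 5.49 to 5.60 and 5.46 to 5.57, so none showed a rise like that of Ttr. Whether that array held choroid plexus tissue was not tested.

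Tandem-pore channels carry the leak current at rest. Of 14 Kcnk genes 0 passed in limma, and 3 (21.4%, against 10.7% of all probe sets) had an unadjusted p under 0.05. Among those that respond to stretch and lipids, Kcnk2 had a change of -0.13 ± 0.049 (adjusted p = 0.336), Kcnk4 one of -0.063 ± 0.025 (adjusted p = 0.365) and Kcnk10 one of -0.096 ± 0.050 (adjusted p = 0.531). Kcnk10 read 9.12, 9.25 and 9.49 in WT and 9.11, 9.18 and 9.24 in cKO, and the groups overlapped. Kcnk12, a dim gene, had a change of 0.079 ± 0.021 (adjusted p = 0.139) and passed without cKO replicate 5 (adjusted p = 0.0475). It read 5.59 to 5.64 across WT arrays and 5.63 to 5.75 across cKO arrays, and cKO replicate 5 was the only cKO array inside the WT range. Kcnk1, which gives a weak leak in many cells, had a value of -0.059 ± 0.050. The acid-sensitive Kcnk3 and Kcnk9 had values of 0.046 and -0.014. The other 7 genes, Kcnk5, Kcnk6, Kcnk7, Kcnk13, Kcnk15, Kcnk16 and Kcnk18, lay between -0.0098 and 0.018.

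Channels opened by calcium or sodium were read together with the Kcnmb subunits and Kcnu1. Of these 12 genes 0 passed the threshold in limma. An unadjusted p under 0.05 was found for 1 gene (8.33%, against 10.7% of all probe sets). That gene was Kcnn2, a small-conductance channel of the afterhyperpolarization, at 0.11 ± 0.038 (adjusted p = 0.268). It read 6.11 to 6.29 across WT arrays and 6.21 to 6.42 across cKO arrays. The large-conductance pore Kcnma1 and its neuronal beta subunit Kcnmb4 had values of -0.12 ± 0.065 and -0.13 ± 0.060 (adjusted p = 0.544 and 0.472). The sodium-activated Kcnt1 had a value of -0.15 ± 0.088 with a 95% interval of -0.34 to 0.046. It read 6.97 to 7.46 across WT arrays and 6.86 to 7.33 across cKO arrays, and the lowest reading was in cKO replicate 2. The other small-conductance genes Kcnn1 and Kcnn3 had values of 0.0096 and -0.034, and the intermediate-conductance Kcnn4 one of -0.0084. Kcnt2, Kcnmb1, Kcnmb2 and Kcnmb3 lay between -0.0055 and 0.051. Kcnu1, a pore of sperm, had a value of 0.015.

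Accessory subunits other than Kcnab1 gave no call. The Kcnip genes encode calcium-binding partners of Kcnd pores. Kcnip1 read 8.27, 8.61 and 8.96 in WT and 8.60, 8.70 and 8.94 in cKO, a change of 0.12 ± 0.10 (adjusted p = 0.732) with the widest SE of the family. Its highest and lowest readings both came from WT arrays, replicates 1 and 6. Kcnip2, Kcnip3 and Kcnip4 had values of -0.0049, -0.058 and 0.023. Of the 5 Kcne genes, small membrane subunits, only Kcne1l reached the median level (0.011 ± 0.079), and the others lay between -0.023 and 0.015. Kcnrg, a cytosolic protein that hinders channel assembly, had a value of 0.054 ± 0.027 (adjusted p = 0.515).

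**Figure D4:**
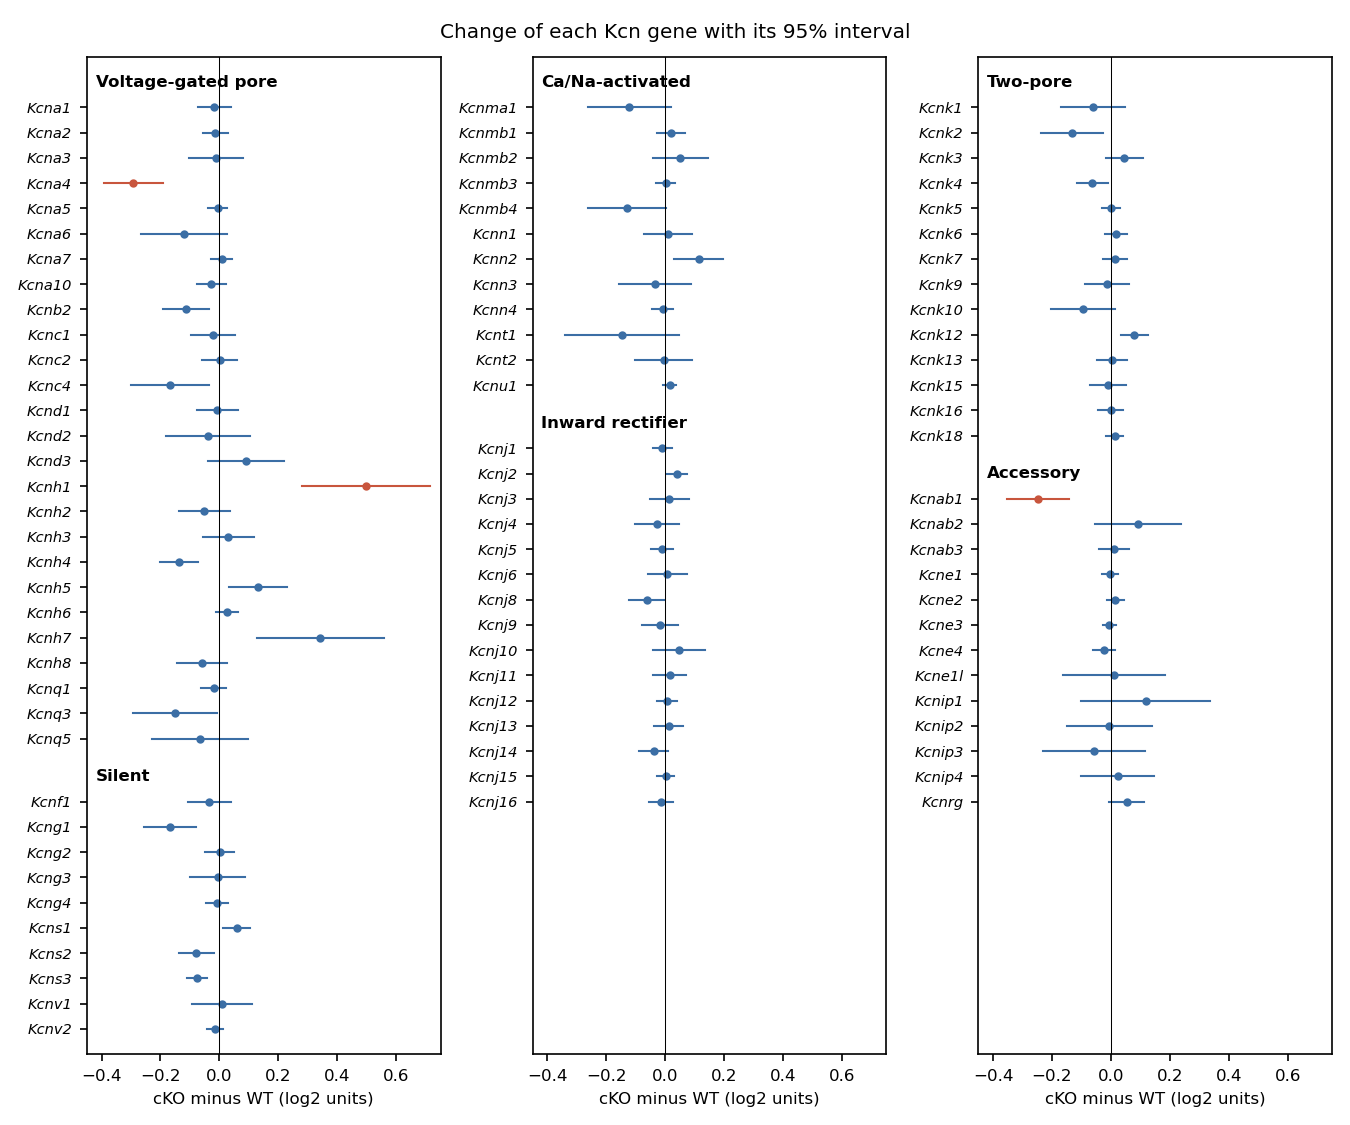
The x axis gives the change of each of the 90 genes (log2, cKO less WT), as a point with its 95% interval (limma, 6 arrays in each group), grouped by channel class (tandem-pore genes stand under Two-pore). Red marks Kcna4, Kcnab1 and Kcnh1, which had an adjusted p under 0.05; most other intervals include 0.

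Across the family 78 of 90 intervals lay inside ±0.25 and 44 inside ±0.10. Of all 25428 probe sets 23409 and 14494 did so. Among the 53 brighter genes it was 41 and 11, against 10705 and 2445 of the 12714 probe sets at or above the median level. A change larger than 0.10 in either direction was seen in 17 of the 53 brighter genes, or 32.1%, against 18.6% of the 12714 probe sets, and in 0 of the 37 dim genes. The WT arrays differed among themselves more than the cKO arrays: the SD was wider in WT for 41 of the 53 brighter genes, or 77.4%, and for 67.6% of those 12714. WT replicate 6 departed most from its group, with a mean absolute deviation of 0.069 over the 90 genes, and cKO replicate 6 least (0.038). WT replicate 6 gave the lowest reading of its group for Kcnh1, Kcnh7 and Kcnip1 and the highest for Kcnab1 and Kcng1.

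Partners of potassium channels, together with the Hcn channels and Tmem175, were read beside them as a single list. Their symbols do not begin with Kcn. Of 25 listed, 23 were measured, 1 fell and 0 rose, where 0.728% of all probe sets passed. At or above the median level, where 21 of the 23 lay, 1.34% of probe sets passed. Dlg2, a postsynaptic scaffold that clusters Shaker and inward rectifier channels, read 9.54, 9.65 and 9.74 in WT and 9.31, 9.34 and 9.43 in cKO. The groups did not overlap, and Dlg2 fell by 0.30 ± 0.035 (SE), or 1.23-fold (limma adjusted p = 0.00241); it passed in each of 23 alternative fits as well. Its relatives Dlg1 and Dlg4 had values of -0.015 and 0.010. Hcn4, a pacemaker channel opened by hyperpolarization, had a change of -0.19 ± 0.039 (adjusted p = 0.0516) and passed in 5 of 23 alternatives. Dpp6, which brings Kcnd pores to the membrane, read 9.12 to 9.48 across WT arrays and 8.95 to 9.17 across cKO arrays (change -0.22 ± 0.056, adjusted p = 0.129). Dpp10, its relative, had a value of 0.088 ± 0.12. Cntnap2, which gathers Shaker channels along axons, had a value of 0.11 ± 0.050 (adjusted p = 0.454). The median change of the 23 was -0.011.

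Cell type markers were read beside these genes. The adjusted threshold was passed by 0.728% of all probe sets, and by 1.34% of those at or above the median level. Of 13 listed projection neuron markers 11 were measured, 1 fell (Pde10a, -0.59) and 0 rose. An unadjusted p under 0.05 was found for 6 as lower and 1 as higher. Over all probe sets 5.67% met that rule as lower and 5.06% as higher, and 15.7% at or above the median level met it in either direction. The summed levels of the projection neuron markers were 100.8 to 104.7 (WT) and 99.5 to 101.7 (cKO), with a median change of -0.20. All 11 lay above the median level. So did every measured marker of interneurons, dividing cells, astrocytes and radial glia, and endothelial cells and pericytes. The level therefore does not identify the tissue. Of 7 cortical neuron markers 6 were measured and 0 passed in limma, with 2 at an unadjusted p under 0.05, both higher in cKO (Neurod6, 0.51, and Neurod2, 0.41). Their median change was 0.20, and the sums were 36.2 to 38.3 (WT) and 36.0 to 40.7 (cKO). Slc17a7 and Emx1 of that list lay below the median level. Of the 4 dividing-cell markers measured, 1 rose (Aurkb, 0.22), and the sums were 30.1 to 31.3 (WT) and 30.5 to 31.7 (cKO). Of 6 interneuron markers measured, 1 rose (Maf, 0.57) and 1 fell (Cxcr4, -0.42), with sums of 52.2 to 52.8 (WT) and 52.3 to 53.1 (cKO). None of the measured markers of astrocytes and radial glia, the oligodendrocyte lineage, microglia, endothelial cells and pericytes or choroid plexus passed. The part of these cells in the changes of Kcna4, Kcnab1 and Kcnh1 was not tested beyond the cortical covariate. With it the values were -0.28, -0.27 and 0.56 (adjusted p = 0.0632, 0.0948 and 0.0675).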

How the data were processed

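The authors deposited 1 table of log2 expression values for 12 arrays (1 colour, biotin label), made with RMA per the submitters' processing notes. The array model and software version are not given in the sources used here. All columns had nearly the same distribution, with values from 5.21 to 13.99. Symbols came from the platform annotation, updated by gene identifier through RefSeq (GRCm38.p6), whose biotype selected protein-coding genes. Pairs of arrays correlated at 0.992 to 0.998.

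Groups were taken from the sample titles and compared by lmFit and eBayes of limma 3.58.1 under R 4.3.3 (two-sided, all probe sets, no covariates), tested first on simulated data. The number of arrays limits the precision. The p values set each change against the spread between these samples, and the labels do not say whether samples pool embryos or share a litter.

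Genes named with values were those past the threshold, those with non-overlapping groups, those with the largest change of a subfamily, markers of other cells, and others singled out after their values were seen, such as members with an unadjusted p under 0.05. The members and lists were chosen with earlier results of these data known. The Y-linked covariate used the 3 named genes of the 4 planned. Alternatives are in the closing section.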

Additional observations from a re-analysis of the deposited data

Results flagged for a closer look

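Readings that stood apart from the other 5 of their group were looked for in 36 genes and 72 groups of 6 arrays, and 4 were found, where chance gives about 1 in 20 groups. In cKO replicate 1, Kcnj13 read 5.55 against 5.46 for the next array, on the array with the high Ttr reading. In WT replicate 3, Kcnk2 read 7.26 against 7.07 for the next. Dlg2 and Hcn4 both stood highest in cKO replicate 4, Dlg2 at 9.43 against 9.35 and Hcn4 at 6.54 against 6.43. Without that array Hcn4 had an adjusted p of 0.0309 in limma.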

How the results depend on the processing

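Kcna4 kept its fall in all 23 alternatives and its call in 21 (adjusted p = 0.00140 to 0.0900), Kcnab1 its fall in all 23 and its call in 11 (0.00801 to 0.121), and Kcnh1 its rise in all 23 and its call in 7 (0.0107 to 0.166). The number of Kcn genes past the threshold, 3 in the reported fit, was 0 at an adjusted p under 0.01 (limma; 19 had an unadjusted p under 0.05) and 6 at one under 0.1. It was 0 with cortical markers as a covariate, where 19 had an unadjusted p under 0.05 in limma, and 1 (Kcna4) with Y-linked expression added to the model or without WT replicates 3 and 6; the cause was not tested. Leaving out single arrays gave 1 to 3. Kcn counts under the 2 repeated normalizations, cyclic loess, the level filter, named probe sets only, the trended robust prior and array weights were 3 or 4; array weights called Kcns3 and not Kcnh1, and the others kept Kcna4, Kcnab1 and Kcnh1. With the replicate block, which the labels do not tie to a litter or day, 1 Kcn gene (Kcng1, adjusted p = 0.0325) and 64 probe sets passed, and Kcna4, Kcnab1 and Kcnh1 did not (adjusted p = 0.0900, 0.0887 and 0.166). The labels do not mark same-numbered arrays as pairs, and the reported fit did not pair them. Deviations of same-numbered arrays correlated at -0.22 to 0.15. Over all probe sets, 185 passed in the reported fit, 61 at 0.01, 364 at 0.1, 278 without dim probe sets and 99 with the cortical covariate, and leaving out single arrays gave 106 to 227. Of the list of partners, Hcn channels and Tmem175, 1 gene passed, or 2 (Hcn4 added) with array weights, cyclic loess or the level filter. Without single arrays 1 to 2 of that list passed. Kcnj13 changed sign without cKO replicate 1 (-0.0077) and was at most 0.020 without any other single array. The cortical covariate and the pair of WT arrays were chosen after the data were seen. Signal near the floor limits 37 of the 90 genes. The cKO arrays of Kcna4 (5.77 to 5.90) and Kcnab1 (5.77 to 5.91) also read close to the median level of 5.71.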

Other observations

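Noncoding genes named after a Kcn locus were left out of the family, and 4 were measured. The antisense transcript Kcnq1ot1, known for imprinting of its locus, had a change of -0.058 ± 0.036 (SE; limma adjusted p = 0.620), reading 6.16 to 6.34 across WT arrays and 6.13 to 6.30 across cKO arrays. The changes were -0.043 for Kcnmb4os1, 0.0014 for Kcnmb4os2 and 0.016 for Kcnd3os, and each of these had overlapping groups. How the array told sense from antisense transcripts is not given in the sources used here.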
